A study of Mus musculus with 16 samples.

Results

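The 31 genes described here are microglia and macrophage genes, chosen by name from a list of symbols and matched to the expression table by Ensembl identifier, which left none of the 31 without a row among 22337. All of the 31 also passed the filter on low counts, which kept 14674 genes for testing. They were measured in bulk RNA of the nucleus accumbens, a ventral part of the striatum, of male C57BL/6 mice. The mice had received arecoline (4 libraries), caffeine (4 libraries), nicotine (4 libraries) or saline (4 libraries) for 4 days. Arecoline is the main alkaloid of the areca nut and acts on muscarinic receptors, caffeine blocks adenosine receptors, and nicotine acts on nicotinic acetylcholine receptors. Dose, route, age of the mice and time of dissection are not given in the sources used. No label says which libraries came from separate animals, so each p-value measures the spread between libraries, part of which may be technical.

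Microglia are the resident macrophages of brain tissue. They depend on the receptor CSF1R and its ligands IL34 and CSF1, and they carry a homeostatic signature of surface receptors that sense nucleotides and the neuronal chemokine CX3CL1. A second, smaller population of macrophages lines the brain's vessels and meninges and is marked by scavenger receptors such as MRC1 and CD163. Of the 31 genes, 26 are microglial or shared by all myeloid cells, and 5 (Mrc1, Cd163, F13a1, Lyz2 and Cd74) are high in perivascular macrophages, monocytes or antigen-presenting cells. In bulk tissue, fewer cells of a type and less RNA of a gene per cell cannot be told apart.

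The estimated counts summed to between 9.04 and 24.32 M in a library (median 14.94 M). Libraries differed in their neuron genes both within and between groups, and 4 stood apart (arecoline 2 and 3, nicotine 2 and saline 3). Summed CPM (counts per M counts of the library, scaled by TMM factors) of 12 medium spiny neuron genes, which define the main neuron of the striatum, were 461 to 9206 in arecoline, 499 to 1742 in caffeine, 799 to 1288 in nicotine and 1827 to 9128 in saline libraries. Arecoline 2 and 3 had 6866 and 9206, arecoline 1 and 4 had 461 and 467, and saline 3 had 9128. Every saline library was above every caffeine and every nicotine library, so striatal neuron content and these compounds cannot be told apart. Nicotine 2 held 2424 CPM of 10 olfactory epithelium genes, against at most 866 in any library of saline. Several results below that rest on these libraries are given with and without them. Without the 4, arecoline keeps only libraries 1 and 4, at 461 and 467 CPM of the medium spiny neuron genes. Saline then keeps libraries 1, 2 and 4, at 2036, 1827 and 2195 CPM. In that setting striatal neuron content and arecoline cannot be told apart either.

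**Figure D1:**
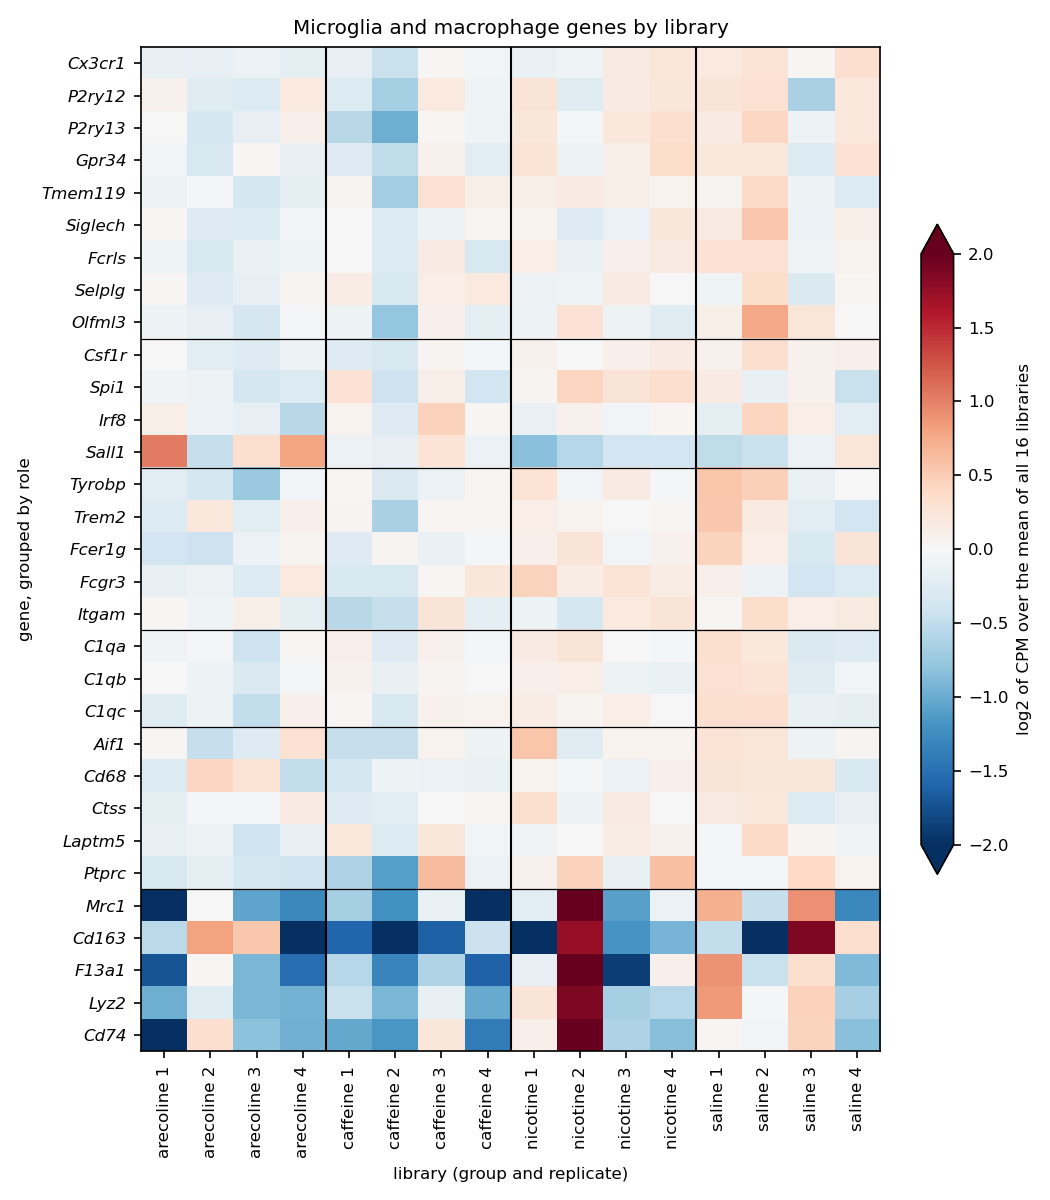
Heat map of the 31 genes (rows, grouped by role, separated by lines) in the 16 libraries (columns, by group and replicate). The colour is the log2 of a library's CPM over the gene's mean in all 16 libraries. The upper 26 rows are pale in nearly all libraries, with caffeine 2 the lowest library for 11 of the 26 and saline 2 the highest for 10, whereas the 5 rows at the foot range widely and nicotine 2 is the highest library for 4 of the 5.

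Myeloid genes are classically controlled by the factor PU.1, the product of the member gene Spi1, which binds purine-rich sequence with a GAGGAAG-like core. Windows of 250 bases before the transcript start were available for 23 of the 31 genes (RefSeq, GRCm38.p6), and the search counted the exact string GAGGAAG on either strand, so also CTTCCTC. It was present in 9 of the 23 genes (39.1%), against 3244 of 27025 genes in the table (12%). It was in 7 of 19 microglial or shared genes and in 2 of 4 perivascular ones. The upstream windows of 5 genes with a match are printed because they set 3 microglial or shared genes (P2ry13, Itgam and Trem2) beside 2 perivascular ones (Mrc1 and F13a1). Each is written 5′ to 3′ on the strand of the gene and ends at the base before the start annotated by RefSeq, with the match in capitals. For Mrc1 this start lies inside the GENCODE span given below, so the window runs into that span. F13a1 has another window, at chr13:37049214-37049463, without a match, and a gene was counted if any of its windows held the string. The windows lie at chr3:59210883-59211132, minus strand for P2ry13, chr7:128062390-128062639, plus strand for Itgam, chr17:48346151-48346400, plus strand for Trem2, chr2:14229164-14229413, plus strand for Mrc1 and chr13:37050245-37050494, minus strand for F13a1.
P2ry13: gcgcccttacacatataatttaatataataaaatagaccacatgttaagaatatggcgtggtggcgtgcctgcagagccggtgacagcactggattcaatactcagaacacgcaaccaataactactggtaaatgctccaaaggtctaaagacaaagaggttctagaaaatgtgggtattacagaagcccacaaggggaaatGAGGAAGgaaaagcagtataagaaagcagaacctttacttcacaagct
Itgam: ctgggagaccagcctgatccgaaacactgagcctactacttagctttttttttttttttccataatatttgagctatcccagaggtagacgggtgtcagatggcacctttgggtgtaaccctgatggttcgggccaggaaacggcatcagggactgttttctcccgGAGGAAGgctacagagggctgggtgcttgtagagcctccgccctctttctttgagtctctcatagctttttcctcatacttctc
Trem2: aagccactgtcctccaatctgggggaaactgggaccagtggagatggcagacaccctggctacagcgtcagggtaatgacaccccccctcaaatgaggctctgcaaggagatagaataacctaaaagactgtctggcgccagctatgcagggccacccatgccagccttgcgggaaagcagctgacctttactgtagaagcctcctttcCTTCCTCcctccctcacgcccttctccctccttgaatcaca
Mrc1: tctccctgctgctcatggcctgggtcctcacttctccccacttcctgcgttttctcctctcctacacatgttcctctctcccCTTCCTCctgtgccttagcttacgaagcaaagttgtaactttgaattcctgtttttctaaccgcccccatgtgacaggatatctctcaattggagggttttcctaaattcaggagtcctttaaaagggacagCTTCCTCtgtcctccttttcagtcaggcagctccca
F13a1: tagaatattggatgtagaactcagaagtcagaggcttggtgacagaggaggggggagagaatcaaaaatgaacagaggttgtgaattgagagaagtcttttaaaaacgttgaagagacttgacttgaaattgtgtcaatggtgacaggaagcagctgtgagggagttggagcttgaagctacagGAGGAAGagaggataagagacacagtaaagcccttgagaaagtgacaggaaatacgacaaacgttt
The match is on the strand of the gene in P2ry13, Itgam and F13a1 and on the other strand in Trem2 and Mrc1. It begins 48 bases before the RefSeq start in P2ry13, 84 in Itgam, 41 in Trem2 and 66 in F13a1, and Mrc1 holds it 168 and 36 bases before the RefSeq start. A match of letters is a description of the window and shows no binding, and a window without it says nothing about the factor.

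Levels can be compared between genes only per length, and the authors' FPKM values were used for that. The 3 chains of complement C1q, the recognition part of the classical complement pathway, held ranks 1 to 3 of the 31, with mean FPKM over the 16 libraries of 116 for C1qb, 84.6 for C1qa and 83.5 for C1qc. Ctss, which encodes the lysosomal protease cathepsin S, followed at 80.2 FPKM. Tyrobp, the adaptor DAP12 of activating receptors, had 58.6, Csf1r had 50.0 and the ADP receptor P2ry12 had 47.8 FPKM. The lowest were Cd163 with 0.691, Ptprc, the pan-leukocyte phosphatase CD45, with 0.887, Mrc1 with 0.988 and F13a1 with 1.32 FPKM. The microglial signature was measured in every library, whereas Mrc1, Cd163 and F13a1 were near the lower end of what was tested, with 5 to 251 estimated counts per library.

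The 26 microglial and shared genes varied less within groups than the 5 perivascular ones. Their within-group spread, the biological coefficient of variation fitted by edgeR, had a median of 16.5% and ran between 11.2% for Csf1r and 30.4% for Ptprc, against a median of 18.3% over all genes tested. The 5 perivascular genes had 44.6% (Lyz2) to 82.9% (Cd163), which put each of them above at least 87.6% of all genes. The summed level of the 26 genes was 1277 ± 86.2 CPM in arecoline, 1305 ± 161 in caffeine, 1449 ± 42.5 in nicotine and 1483 ± 194 in saline libraries (SD, n = 4 each). The range of each compound, 1172 to 1370 in arecoline, 1087 to 1469 in caffeine and 1388 to 1485 in nicotine, overlapped that of saline libraries, 1272 to 1705, and every arecoline library was below every nicotine library.

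**Figure D2:**
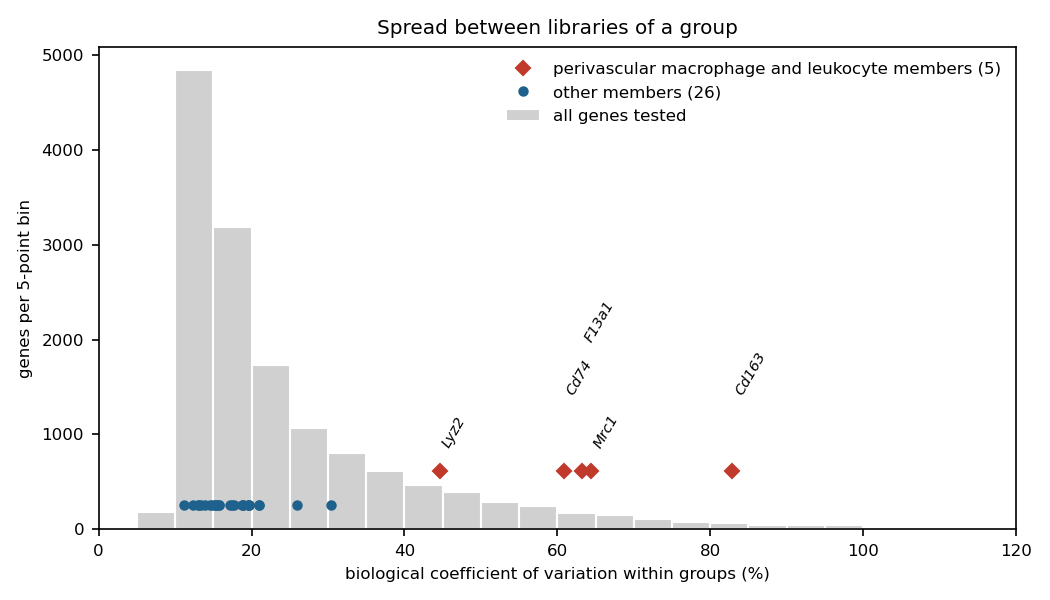
Histogram of the within-group biological coefficient of variation (x axis, %) of all genes tested (grey bars, genes per bin, up to 120%), with the 26 microglial and shared genes as circles and the 5 perivascular and leukocyte genes as diamonds, set at fixed heights. The circles lie between 11.2% and 30.4% and the diamonds between 44.6% and 82.9%.

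Against saline, 0 of the 31 genes passed an adjusted p of 0.05 in edgeR's quasi-likelihood test with Benjamini-Hochberg adjustment, with any of the 3 compounds. Over all genes the same rule called 0.0136% with arecoline, 4.08% with caffeine and 0.0% with nicotine. DESeq2 called 1 of the 31 with arecoline, 2 with caffeine and 0 with nicotine, where it called 3.47%, 10.7% and 0.778% of the genes to which it gave an adjusted p. With arecoline, 29 of the 31 log2 fold changes were below 0, beside 49.2% of all genes, and their median was -0.26, beside 0.00 over all genes. With caffeine, 26 of 31 were below 0, beside 52.1% of all genes, and the median was -0.26, beside -0.02. With nicotine, 17 of 31 were below 0, beside 46.7%, and the median was -0.02, beside 0.02. The 3 comparisons share the saline libraries. Without the 4 libraries that stood apart, P2ry13 (-0.61), Gpr34 (-0.44) and Cx3cr1 (-0.42) passed with caffeine at edgeR adjusted p-values of 0.047, 0.046 and 0.033, where 10% of all genes passed.

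At an unadjusted p under 0.05, 10 of the 31 differed with arecoline, 9 of them lower and 1 higher, where 15.7% of all genes differed, 8.16% lower and 7.52% higher. With caffeine 6 differed, each of them lower, where 24.6% of all genes differed and 12.7% were lower. With nicotine 1 differed, higher, where 12.2% of all genes differed and 6.45% were higher. The caffeine share of the members, 19.4%, was below the share of all genes. Without the 4 libraries that stood apart, the counts below 0 were 29, 27 and 24 of 31 with arecoline, caffeine and nicotine, beside 50.2%, 52.1% and 51.4% of all genes. The counts lower at that unadjusted p were then 9, 14 and 1, beside 13%, 14.3% and 8.23% of all genes, a choice of count made after seeing the data. With arecoline the count of 9 was 11 without saline 3 (8.59% of all genes lower) and 10 without nicotine 2 (9.62%). It was 5 without saline 2 (5.28%) and 5 without arecoline 3 (7.23%). With caffeine the count of 6 was 10 without saline 3 (9.83% of all genes lower) and 10 without nicotine 2 (14.7%), and it was 4 without saline 2 (10.7%), without caffeine 1 (8.62%) and without caffeine 2 (9.3%).

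**Figure D3:**
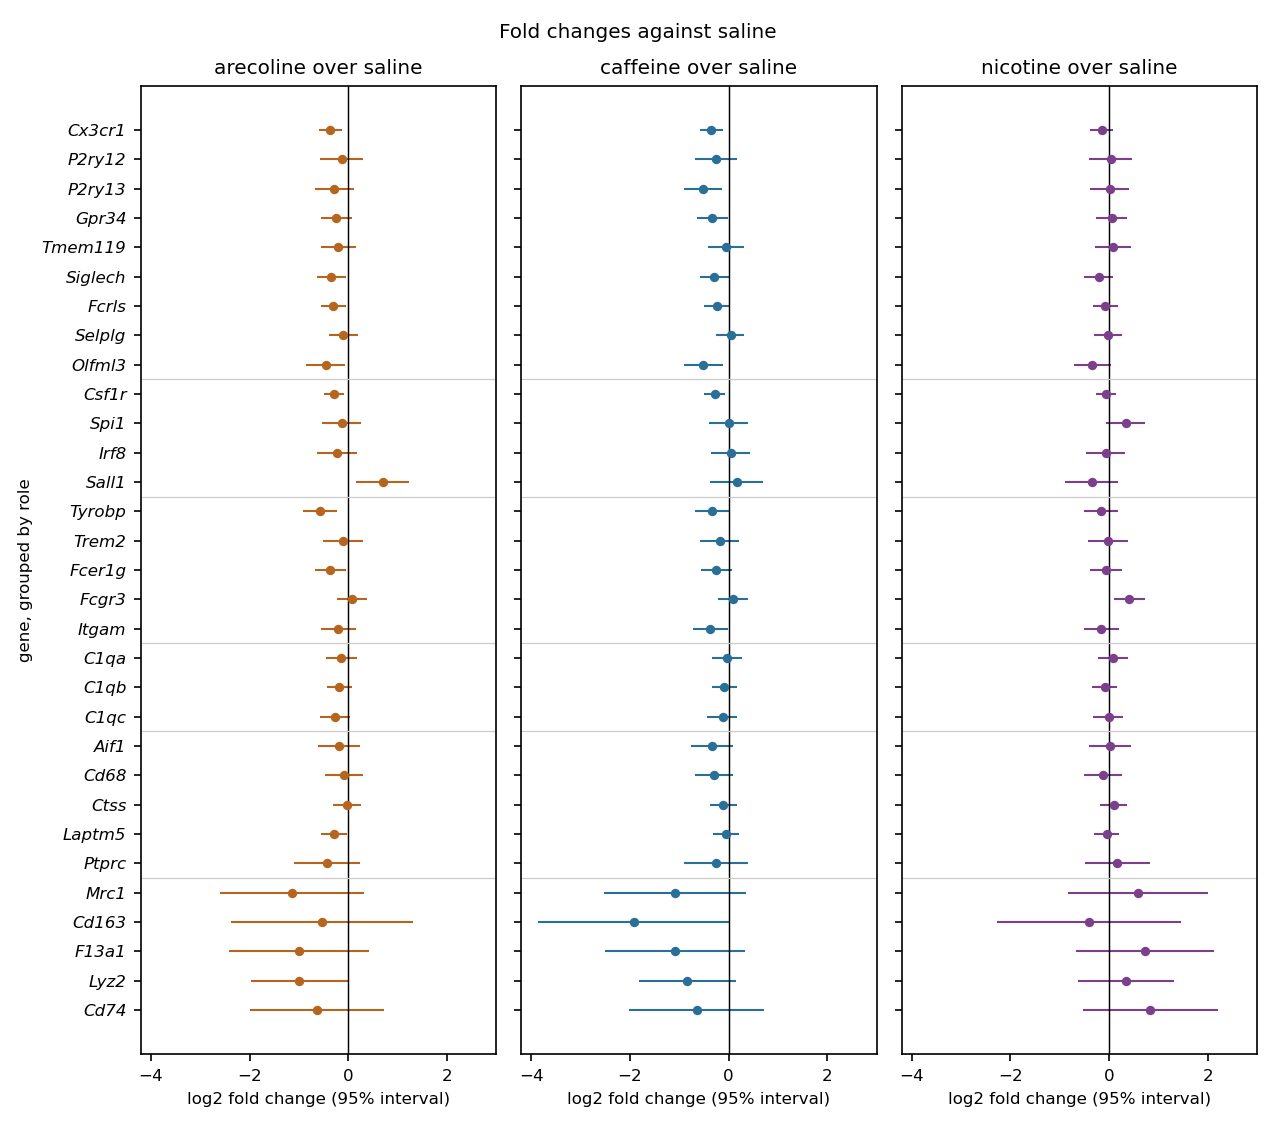
Log2 fold change against saline (x axis) of each of the 31 genes (rows, grouped by role) with arecoline, caffeine and nicotine, with points for the estimate and bars for its 95% interval from edgeR. The intervals of the upper 26 genes are short and mostly span 0, and those of the 5 perivascular genes are the widest, the widest being Cd163 with caffeine at -3.86 to 0.01.

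Coordinates of genes are those of GENCODE M21 on mm10. The 9 homeostatic surface genes of microglia were Cx3cr1, P2ry12, P2ry13, Gpr34, Tmem119, Siglech, Fcrls, Selplg and Olfml3. With arecoline all 9 had a log2 fold change below 0, and with caffeine 8 and with nicotine 5 did. Cx3cr1 (chromosome 9, 119901616 to 120069879), the receptor of the neuronal chemokine fractalkine, had 90.2, 89.6, 92.5 and 87.2 CPM in arecoline libraries, 88.9, 73.3, 102 and 96.4 CPM in caffeine libraries, 91.4, 93.7, 113 and 118 CPM in nicotine libraries, and 115, 120.3, 101 and 126 CPM in saline libraries. Every arecoline library was below every saline library, and 3 of the 4 caffeine libraries were. The log2 fold change was -0.36 ± 0.11 (SE; edgeR adjusted p = 0.144) with arecoline, -0.35 ± 0.11 (SE; edgeR adjusted p = 0.0773) with caffeine and -0.15 ± 0.11 (SE; edgeR adjusted p = 0.612) with nicotine. Non-overlapping ranges of this kind, lower with arecoline, were found for 6 of the 31 genes (Cx3cr1, Fcrls, Olfml3, Csf1r, Laptm5 and Ptprc), where 3.76% of all genes had them. The annotated span of Cx3cr1 overlaps Wdr48, Ttc21a, Gorasp1, Csrnp1 and Xirp1, and whether strand was kept is not given, so reads of these genes could have been assigned to one another.

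The ADP receptors lie side by side. P2ry12 (chromosome 3, 59216272 to 59262871), by which microglial processes follow ADP, had 68.5, 54.4, 53.6 and 73.8 CPM in arecoline libraries, 53.2, 40.7, 74.2 and 60.9 CPM in caffeine libraries, 77.6, 54.4, 72.7 and 75.4 CPM in nicotine libraries, and 77.6, 79.8, 41.3 and 74.8 CPM in saline libraries. Saline 3 stood far below the other saline libraries, and the groups overlapped. The log2 fold changes were -0.13 ± 0.21 (SE; edgeR adjusted p = 0.808) with arecoline, -0.25 ± 0.21 (SE; edgeR adjusted p = 0.456) with caffeine and 0.04 ± 0.21 (SE; edgeR adjusted p = 0.966) with nicotine. P2ry13 (chromosome 3, 59207892 to 59210882), its neighbour and another ADP receptor, had 27.7, 21.9, 24.8 and 29.9 CPM in arecoline libraries, 18.9, 14.2, 28.6 and 26.4 CPM in caffeine libraries, 32.5, 27.1, 32.4 and 35.1 CPM in nicotine libraries, and 31.4, 37.1, 25.9 and 32.3 CPM in saline libraries. Caffeine 1 and 2 were below every other library of P2ry13, and the log2 fold change with caffeine was -0.52 ± 0.18 (SE; edgeR adjusted p = 0.105), beside -0.28 ± 0.18 (SE; edgeR adjusted p = 0.485) with arecoline and 0.01 ± 0.18 (SE; edgeR adjusted p = 0.991) with nicotine. Both overlap Med12l on the other strand.

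Tmem119 (chromosome 5, 113793729 to 113800516), a membrane protein that separates microglia from other macrophages, had 57.7, 61.1, 48.6 and 53.8 CPM in arecoline libraries, 63.9, 38.3, 76 and 67.1 CPM in caffeine libraries, 67.1, 69.3, 67 and 64.8 CPM in nicotine libraries, and 64.4, 80.8, 57.7 and 51 CPM in saline libraries. The nicotine libraries lay close together within the range of saline, and caffeine 2 was lowest. Its log2 fold changes were -0.20 ± 0.17 (SE; edgeR adjusted p = 0.609) with arecoline, -0.05 ± 0.17 (SE; edgeR adjusted p = 0.881) with caffeine and 0.08 ± 0.17 (SE; edgeR adjusted p = 0.894) with nicotine. Olfml3 (chromosome 3, 103722222 to 103738001), a secreted glycoprotein enriched in microglia, had 39.4, 37.4, 33.4 and 41.3 CPM in arecoline libraries, 39.3, 24.7, 45.3 and 37.3 CPM in caffeine libraries, 39.3, 51.5, 39.4 and 35.7 CPM in nicotine libraries, and 45.5, 71.1, 50.0 and 42.3 CPM in saline libraries. Every arecoline library was below every saline library of Olfml3, and saline 2 was the highest of the 16. The log2 fold changes were -0.46 ± 0.18 (SE; edgeR adjusted p = 0.237) with arecoline, -0.51 ± 0.18 (SE; edgeR adjusted p = 0.108) with caffeine and -0.34 ± 0.18 (SE; edgeR adjusted p = 0.481) with nicotine.

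The other 4 of these genes are given by their means (± SD, n = 4 each). Gpr34 (chromosome X, 13632089 to 13640858), a lysophosphatidylserine receptor, averaged 22.6 ± 2.25 CPM in arecoline, 21.3 ± 3.65 CPM in caffeine, 27.8 ± 3.81 CPM in nicotine and 26.8 ± 4.36 CPM in saline libraries, and it overlaps Cask on the other strand. Siglech (chromosome 7, 55768178 to 55778925), a sialic acid-binding lectin, averaged 31.1 ± 3.21 CPM in arecoline, 32.3 ± 2.9 CPM in caffeine, 34 ± 4.99 CPM in nicotine and 39.3 ± 7.71 CPM in saline libraries. Fcrls (chromosome 3, 87250758 to 87263738), a scavenger receptor related to Fc receptors, averaged 52.6 ± 3.94 CPM in arecoline, 55 ± 8.99 CPM in caffeine, 61.5 ± 5.45 CPM in nicotine and 64.9 ± 7.68 CPM in saline libraries. Of these, only Fcrls had non-overlapping ranges against saline, with arecoline, where its log2 fold change was -0.30 ± 0.12 (SE; edgeR adjusted p = 0.239). Selplg (chromosome 5, 113818536 to 113832644), which encodes the P-selectin ligand, averaged 65 ± 6.77 CPM in arecoline, 71.5 ± 10.4 CPM in caffeine, 69 ± 6.16 CPM in nicotine and 69.8 ± 13.3 CPM in saline libraries, and its largest log2 fold change against saline was -0.10 ± 0.14 (SE; edgeR adjusted p = 0.758), with arecoline.

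Csf1r (chromosome 18), the receptor on which microglial survival depends, had the smallest spread of the 31 genes. It had 194, 168, 163 and 181 CPM in arecoline libraries, 162, 156, 201 and 189 CPM in caffeine libraries, 205, 195, 208 and 217 CPM in nicotine libraries, and 205, 244, 205 and 209 CPM in saline libraries. All arecoline and all caffeine libraries were below the lowest saline library, which for caffeine was the only gene of the 31 with ranges apart in that direction (7.82% of all genes). The fold change was 0.818 with arecoline and 0.822 with caffeine, that is -0.29 ± 0.10 (SE; edgeR adjusted p = 0.168) and -0.28 ± 0.10 (SE; edgeR adjusted p = 0.0946) on the log2 scale. With nicotine the log2 fold change was -0.07 ± 0.10 (SE; edgeR adjusted p = 0.823). It overlaps Hmgxb3 on the other strand, whose mean was 43.5 CPM.

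**Figure D4:**
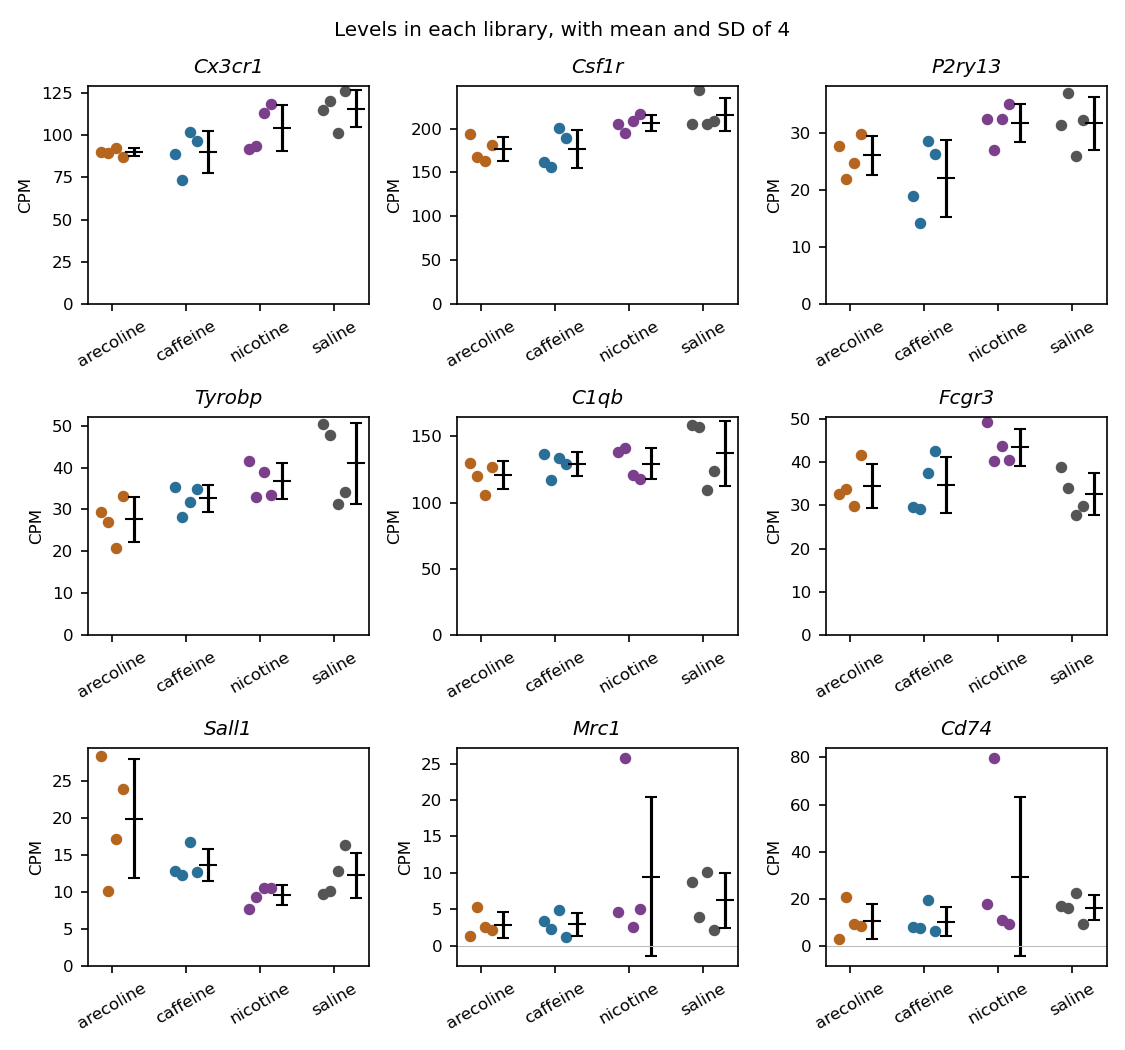
CPM (y axis) of 9 of the genes in each library, by group (x axis), with points for libraries and the bar beside them for the mean and SD of 4. Arecoline and caffeine libraries of Csf1r lie below all saline libraries, nicotine libraries of Fcgr3 lie above all saline libraries, Sall1 reaches 28.4 CPM in an arecoline library, and 1 nicotine library stands far above the rest for Mrc1 and Cd74.

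Among the transcription factors of the lineage, Sall1 (chromosome 8, 89027235 to 89044162), which holds the microglial identity in place, was above 0 with arecoline, as was only Fcgr3 of the other genes. It had 28.4, 10.1, 17.2 and 23.9 CPM in arecoline libraries, 12.8, 12.3, 16.8 and 12.7 CPM in caffeine libraries, 7.76, 9.31, 10.6 and 10.6 CPM in nicotine libraries, and 9.75, 10.2, 12.8 and 16.3 CPM in saline libraries. Arecoline 1, 3 and 4 exceeded every saline library, and arecoline 2 lay within their range. The log2 fold change was 0.70 ± 0.25 (SE; edgeR adjusted p = 0.2) with arecoline, 0.16 ± 0.25 (SE; edgeR adjusted p = 0.722) with caffeine and -0.35 ± 0.26 (SE; edgeR adjusted p = 0.609) with nicotine. Without arecoline 2 it was 0.93 (edgeR adjusted p = 0.04) and without the 4 libraries that stood apart 1.12 (edgeR adjusted p = 0.013), so the call against saline changed with these libraries. The latter setting keeps only arecoline 1 and 4, which had lower medium spiny neuron sums than every saline library. There, arecoline and striatal neuron content cannot be told apart. Adjusted p-values over the 26 alternatives ranged from 0.013 to 0.46. Sall1 is also transcribed outside microglia in several tissues, and which cells carried it was not tested.

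Spi1 (chromosome 2, 91082390 to 91115756), which encodes PU.1, had 8.14, 7.92, 6.72 and 7.05 CPM in arecoline libraries, 10.4, 6.44, 9.3 and 6.58 CPM in caffeine libraries, 8.89, 11.5, 10.2 and 10.8 CPM in nicotine libraries, and 9.61, 7.74, 9.1 and 6.25 CPM in saline libraries. All nicotine libraries were above the saline mean, though the ranges overlapped, and the log2 fold changes were -0.13 ± 0.19 (SE; edgeR adjusted p = 0.774) with arecoline, 0.00 ± 0.19 (SE; edgeR adjusted p = 0.993) with caffeine and 0.34 ± 0.19 (SE; edgeR adjusted p = 0.49) with nicotine. Irf8 (chromosome 8, 120736358 to 120756694), a partner factor of PU.1, averaged 9.88 ± 1.83 CPM in arecoline, 11.9 ± 2.45 CPM in caffeine, 11 ± 0.751 CPM in nicotine and 11.6 ± 2.54 CPM in saline libraries (± SD, n = 4 each). Its log2 fold changes lay between -0.23 and 0.04, and it overlaps Gm20388 on the same strand.

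Receptors that signal through immunoreceptor tyrosine-based activation motifs and their adaptors form the next group. Tyrobp (chromosome 7, 30413760 to 30417585) had 29.4, 27.1, 20.7 and 33.3 CPM in arecoline libraries, 35.4, 28.3, 31.8 and 35 CPM in caffeine libraries, 41.7, 33.1, 38.9 and 33.5 CPM in nicotine libraries, and 50.5, 47.9, 31.4 and 34.2 CPM in saline libraries. Saline 1 and 2 were the highest of the 16 libraries, saline 3 and 4 lay among the caffeine and nicotine libraries, and arecoline 3 was lowest. With arecoline the fold change was 0.674, or -0.57 ± 0.17 (SE; edgeR adjusted p = 0.126) on the log2 scale, the smallest adjusted p of the 31 genes in that comparison. DESeq2 called it there with an adjusted p of 0.041, and adjusted p-values over the 26 alternatives ranged from 0.041 to 0.37. The log2 fold change was -0.33 ± 0.16 (SE; edgeR adjusted p = 0.228) with caffeine and -0.16 ± 0.17 (SE; edgeR adjusted p = 0.74) with nicotine.

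Trem2 (chromosome 17, 48346401 to 48354147), a lipid-sensing receptor that signals through DAP12, had 18.8, 26.4, 19.4 and 24.5 CPM in arecoline libraries, 23.6, 14.6, 23.4 and 23.2 CPM in caffeine libraries, 24.9, 23.9, 23 and 23.1 CPM in nicotine libraries, and 33, 25.9, 19.8 and 17.4 CPM in saline libraries. The groups overlapped, and its log2 fold changes were -0.11 ± 0.19 (SE; edgeR adjusted p = 0.823) with arecoline, -0.18 ± 0.19 (SE; edgeR adjusted p = 0.577) with caffeine and -0.02 ± 0.19 (SE; edgeR adjusted p = 0.976) with nicotine. The ratio of Trem2 to Tyrobp CPM ran between 0.511 in saline 4 and 0.971 in arecoline 2 (highest over lowest 1.9), with a median of 0.658. For P2ry13 to P2ry12 the highest over lowest ratio was 1.79. The part of counting noise in these ratios was not tested.

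Fcgr3 (chromosome 1, 171051174 to 171064935), a low-affinity receptor for IgG, had 32.6, 33.7, 29.9 and 41.7 CPM in arecoline libraries, 29.5, 29.1, 37.4 and 42.6 CPM in caffeine libraries, 49.3, 40.1, 43.7 and 40.4 CPM in nicotine libraries, and 38.9, 33.9, 27.8 and 29.9 CPM in saline libraries. Every nicotine library was above every saline library, the only gene of the 31 so placed with nicotine (3.84% of all genes), at a fold change of 1.33. The log2 fold change was 0.41 ± 0.15 (SE; edgeR adjusted p = 0.294). With arecoline and caffeine it was 0.08 ± 0.15 (SE; edgeR adjusted p = 0.832) and 0.09 ± 0.15 (SE; edgeR adjusted p = 0.735). Part of its reads could belong to Fcgr2b, a close relative, which averaged 4.66 ± 1.25 CPM in arecoline, 5.39 ± 1.74 in caffeine, 6.38 ± 1.58 in nicotine and 6.42 ± 0.436 in saline libraries. Fcer1g (chromosome 1, 171229572 to 171234365), the common Fc receptor gamma chain with which FCGR3 pairs, averaged 20.5 ± 3.19 CPM in arecoline, 22.2 ± 1.96 CPM in caffeine, 25.3 ± 2.26 CPM in nicotine and 26.4 ± 5.49 CPM in saline libraries. Its log2 fold change with arecoline was -0.36 ± 0.15 (SE; edgeR adjusted p = 0.254). Itgam (chromosome 7, 128062640 to 128118491), the alpha chain of complement receptor CR3, averaged 25.5 ± 2.45 CPM in arecoline, 22.6 ± 6.09 CPM in caffeine, 26.3 ± 4.85 CPM in nicotine and 29.4 ± 2.76 CPM in saline libraries. Its log2 fold change with caffeine was -0.37 ± 0.17 (SE; edgeR adjusted p = 0.183).

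The 3 C1q genes lie next to each other on chromosome 4 (C1qb at 136880129 to 136886187, C1qc at 136889804 to 136893065 and C1qa at 136895917 to 136898803). C1qa had 85.2, 87.6, 67.3 and 91.5 CPM in arecoline libraries, 96.8, 75.4, 95.3 and 88 CPM in caffeine libraries, 101, 107, 90.0 and 87 CPM in nicotine libraries, and 112, 104, 73.7 and 74.7 CPM in saline libraries. C1qb had 130.0, 120.4, 106 and 127 CPM in arecoline libraries, 137, 117, 134 and 129 CPM in caffeine libraries, 138, 141, 121 and 118 CPM in nicotine libraries, and 159, 157, 109.6 and 124 CPM in saline libraries. C1qc had 86.4, 95.9, 72.7 and 110.5 CPM in arecoline libraries, 104, 81.8, 109 and 108 CPM in caffeine libraries, 114, 106, 112 and 102 CPM in nicotine libraries, and 128, 129, 92.3 and 89.6 CPM in saline libraries. In each of them saline 1 and 2 were high and saline 3 and 4 low, and the range of saline covered the other 12 libraries except arecoline 3 in all of the genes and arecoline 1 and caffeine 2 in C1qc. With arecoline the log2 fold changes were -0.14 ± 0.14 (SE; edgeR adjusted p = 0.682) for C1qa, -0.18 ± 0.12 (SE; edgeR adjusted p = 0.473) for C1qb and -0.26 ± 0.14 (SE; edgeR adjusted p = 0.397) for C1qc. With caffeine they were -0.04 ± 0.14 (SE), -0.09 ± 0.12 (SE) and -0.12 ± 0.14 (SE), and with nicotine 0.08 ± 0.14 (SE), -0.09 ± 0.12 (SE) and -0.01 ± 0.14 (SE), in the same order. Over the 16 libraries the ratio of C1qa to C1qb CPM was 0.604 to 0.764 (highest over lowest 1.26) and that of C1qc to C1qb 0.665 to 0.933 (1.4). Such narrow ratios were not particular to the C1q chains. The ratio of Cx3cr1 to Csf1r CPM, genes on different chromosomes, was 0.446 to 0.601 (1.35).

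None of the 5 lysosomal and pan-myeloid genes passed the test. Ctss (chromosome 3, 95526786 to 95556403) had 97.8, 108, 108 and 125 CPM in arecoline libraries, 93, 95.9, 111 and 114 CPM in caffeine libraries, 138, 103, 126 and 110.3 CPM in nicotine libraries, and 126, 129, 91.6 and 99.4 CPM in saline libraries. The groups overlapped, and the 95% interval of its log2 fold change was -0.30 to 0.25 with arecoline, -0.38 to 0.17 with caffeine and -0.18 to 0.37 with nicotine. Cd68 (chromosome 11, 69664213 to 69666153), a lysosomal membrane protein of phagocytes, had 16.1, 26.1, 23.6 and 13.8 CPM in arecoline libraries, 15.2, 18.2, 18 and 17.7 CPM in caffeine libraries, 20.4, 18.9, 17.9 and 21 CPM in nicotine libraries, and 23.3, 22.9, 22.9 and 15.7 CPM in saline libraries. Arecoline held both the highest and the lowest of the 16 libraries of Cd68, and its log2 fold changes were -0.09 ± 0.18 (SE; edgeR adjusted p = 0.85) with arecoline, -0.30 ± 0.18 (SE; edgeR adjusted p = 0.32) with caffeine and -0.12 ± 0.18 (SE; edgeR adjusted p = 0.841) with nicotine.

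Aif1 (chromosome 17, 35170991 to 35176068), the gene of the microglial stain IBA1, averaged 10.2 ± 2.39 CPM in arecoline, 9.2 ± 1.74 CPM in caffeine, 11.8 ± 2.76 CPM in nicotine and 11.6 ± 1.35 CPM in saline libraries (± SD, n = 4 each). Laptm5 (chromosome 4, 130913125 to 130936141), a lysosomal membrane protein of leukocytes, averaged 51.8 ± 4.51 CPM in arecoline, 61.3 ± 9.75 CPM in caffeine, 61.2 ± 3.94 CPM in nicotine and 63.4 ± 9.42 CPM in saline libraries. Its arecoline libraries were all below its saline libraries, and the log2 fold change was -0.29 ± 0.12 (SE; edgeR adjusted p = 0.266). Ptprc (chromosome 1, 138062861 to 138175708) averaged 2.81 ± 0.172 CPM in arecoline, 3.13 ± 1.65 CPM in caffeine, 4.24 ± 0.993 CPM in nicotine and 3.77 ± 0.575 CPM in saline libraries. Its arecoline libraries were also all below saline, and the log2 fold change was -0.43 ± 0.31 (SE; edgeR adjusted p = 0.537).

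The 5 perivascular and leukocyte genes varied widely within groups, and none passed the test. Mrc1 (chromosome 2, 14229392 to 14332057), the mannose receptor, had 1.26, 5.32, 2.59 and 2.19 CPM in arecoline libraries, 3.39, 2.33, 4.88 and 1.14 CPM in caffeine libraries, 4.6, 25.8, 2.54 and 4.98 CPM in nicotine libraries, and 8.79, 3.91, 10.1 and 2.19 CPM in saline libraries. F13a1 (chromosome 13, 36867178 to 37050244), the A chain of coagulation factor XIII, had 1.59, 5.37, 2.79 and 1.83 CPM in arecoline libraries, 3.53, 2.1, 3.47 and 1.71 CPM in caffeine libraries, 4.67, 26.9, 1.42 and 5.65 CPM in nicotine libraries, and 9.75, 3.84, 6.59 and 2.84 CPM in saline libraries. Nicotine 2 exceeded every other library of both genes, and saline 1 and 3 came next in both. The ratio of F13a1 to Mrc1 CPM had a median of 1.03 and ran between 0.561 and 1.5. With nicotine the log2 fold changes were 0.58 ± 0.67 (SE; edgeR adjusted p = 0.766) for Mrc1 and 0.72 ± 0.66 (SE; edgeR adjusted p = 0.694) for F13a1. Without nicotine 2 they were -0.64 (edgeR adjusted p = 0.623) and -0.56 (edgeR adjusted p = 0.645), on the other side of 0. With arecoline they were -1.14 ± 0.69 (SE; edgeR adjusted p = 0.441) and -0.99 ± 0.67 (SE; edgeR adjusted p = 0.502), and with caffeine -1.08 ± 0.68 (SE; edgeR adjusted p = 0.331) and -1.08 ± 0.67 (SE; edgeR adjusted p = 0.324).

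Cd163 (chromosome 6, 124304656 to 124330527), the scavenger receptor of haemoglobin and haptoglobin complexes, had 2.12, 5.37, 4.46 and 0.575 CPM in arecoline libraries, 1.02, 0.388, 0.992 and 2.28 CPM in caffeine libraries, 0.603, 10.3, 1.36 and 1.61 CPM in nicotine libraries, and 2.18, 0.71, 11.2 and 3.89 CPM in saline libraries. Saline 3 and nicotine 2 stood above the rest. The caffeine libraries were all below the saline mean, which saline 3 raised, as the other saline libraries had 0.71 to 3.89 CPM. The log2 fold change of Cd163 was -0.53 ± 0.87 (SE; edgeR adjusted p = 0.815) with arecoline, -1.92 ± 0.91 (SE; edgeR adjusted p = 0.206) with caffeine and -0.41 ± 0.88 (SE; edgeR adjusted p = 0.891) with nicotine, which was -1.91 (edgeR adjusted p = 0.333) without nicotine 2. When each library was left out, it ran from -0.91 to 0.47 with arecoline, -2.44 to -0.93 with caffeine and -1.91 to 0.59 with nicotine. The signs with arecoline and nicotine thus depended on single libraries. Lyz2 (chromosome 10, 117277331 to 117282321), lysozyme of macrophages and neutrophils, had 11.7, 19.4, 12.2 and 11.9 CPM in arecoline libraries, 16.8, 12.1, 20.6 and 11.4 CPM in caffeine libraries, 27.4, 83.3, 14.5 and 15.5 CPM in nicotine libraries, and 41.4, 22.4, 31.4 and 14.4 CPM in saline libraries. Nicotine 2 was again the highest, and all arecoline and caffeine libraries were below the saline mean, though not below every saline library. The log2 fold change was -0.99 ± 0.47 (SE; edgeR adjusted p = 0.318) with arecoline, -0.84 ± 0.46 (SE; edgeR adjusted p = 0.27) with caffeine and 0.35 ± 0.46 (SE; edgeR adjusted p = 0.803) with nicotine, which was -0.52 (edgeR adjusted p = 0.472) without nicotine 2. Its near-identical relative Lyz1 had at most 0.428 CPM in any library.

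Cd74 (chromosome 18), the invariant chain of MHC class II, had 2.91, 20.9, 9.38 and 8.57 CPM in arecoline libraries, 8.18, 7.45, 19.5 and 6.32 CPM in caffeine libraries, 17.9, 79.8, 10.9 and 9.21 CPM in nicotine libraries, and 17.1, 16.1, 22.6 and 9.33 CPM in saline libraries. Nicotine 2 was far above the other 15 libraries, arecoline 1 was the lowest, and the groups overlapped. The log2 fold change was -0.64 ± 0.65 (SE; edgeR adjusted p = 0.673) with arecoline, -0.65 ± 0.64 (SE; edgeR adjusted p = 0.55) with caffeine and 0.84 ± 0.64 (SE; edgeR adjusted p = 0.625) with nicotine, and with nicotine it was -0.37 (edgeR adjusted p = 0.771) without nicotine 2. The summed level of the 5 genes was 33.1 ± 16.3 CPM in arecoline, 32.4 ± 12.2 in caffeine, 87.2 ± 93.1 in nicotine and 60.2 ± 24.3 in saline libraries (SD, n = 4 each). The 4 nicotine libraries had 55.2, 226, 30.7 and 36.9 CPM, and without nicotine 2 their mean was 40.9 ± 12.8 (SD, n = 3), below the saline mean. Over the 5 genes the median log2 fold change was -0.99 with arecoline, -1.08 with caffeine and 0.58 with nicotine, and the last was -0.56 without nicotine 2.

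**Figure D5:**
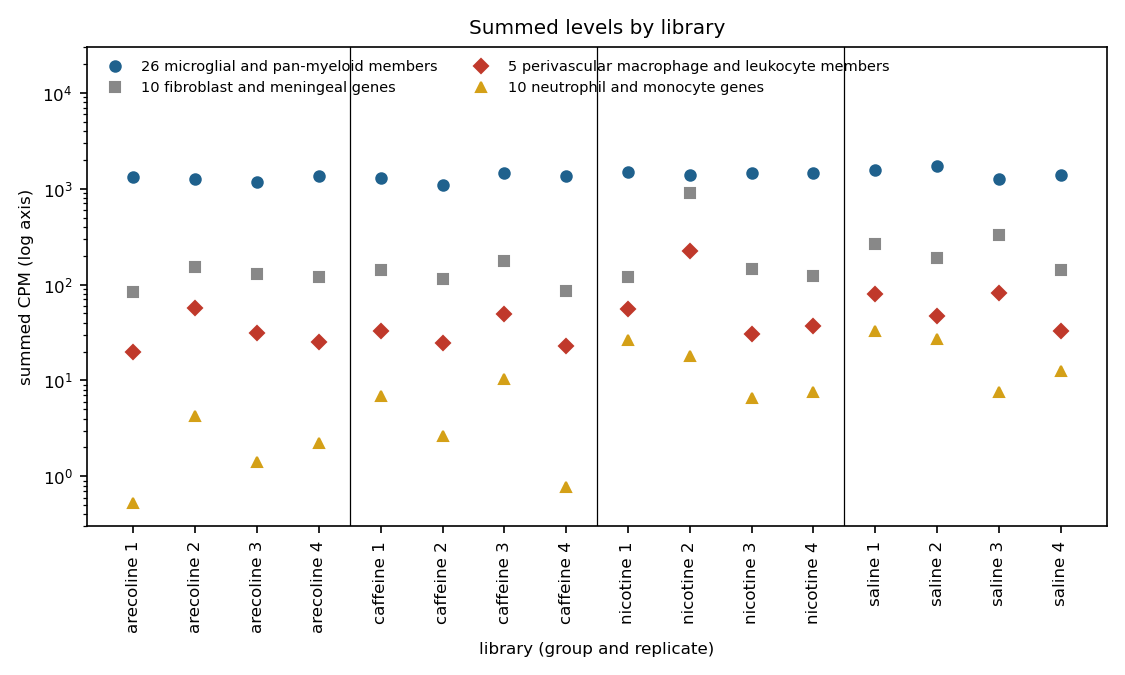
Summed CPM (y axis, log scale) in each library (x axis, by group and replicate) of the 26 microglial and shared genes, 10 fibroblast and meningeal genes, the 5 perivascular and leukocyte genes and 10 neutrophil and monocyte genes. The uppermost series stays between 1087 and 1705 CPM, and nicotine 2 has both the highest fibroblast sum, 891, and the highest perivascular sum, 226.

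Genes of vessels, meninges and blood were read beside the perivascular members. The 10 fibroblast and meningeal genes summed to 84.0 to 153 CPM in arecoline, 85.4 to 177 in caffeine, 121 to 891 in nicotine and 143 to 329 in saline libraries, and all 10 were detected. In nicotine 2 their sum was 891, with Col1a1 at 151 and Igf2 at 250.3 CPM, and its perivascular sum was 226. The same library had 337 CPM of Omp, an olfactory neuron gene that was at most 27.7 in any other. The other perivascular macrophage list summed to 292 CPM there, of which Cbr2 alone gave 198. The 10 endothelial and mural genes summed to 142 to 213 CPM in arecoline, 134 to 215 in caffeine, 139 to 403 in nicotine and 184 to 259 in saline libraries. The 6 erythroid genes summed to 23.0 to 115 CPM in arecoline, 33.6 to 83.8 in caffeine, 140 to 309 in nicotine and 80.0 to 219 in saline libraries. Neutrophil and monocyte genes summed to 0.529 to 4.3 CPM in arecoline, 0.777 to 10.3 in caffeine, 6.5 to 26.7 in nicotine and 7.61 to 33.1 in saline libraries, so all arecoline libraries were below all saline libraries. Ly6g, which defines neutrophils, was at 0 in 8 of 8 arecoline and nicotine libraries and at most 0.339 CPM elsewhere, so it was near the floor in every group. Other neutrophil genes of the list were higher in nicotine than in arecoline libraries. S100a8 averaged 0.534 CPM in arecoline, 1.3 in caffeine, 4.99 in nicotine and 6.7 in saline libraries. For Ngp these means were 0.141, 0.953, 2.7 and 4.79 CPM. The part of these cells in the values of Lyz2 and the other 4 members was not tested.

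Between compounds, 0 of 31 genes passed in any of 3 contrasts. The share of all genes called was 0.0% for arecoline against caffeine, 0.0886% for arecoline against nicotine and 0.0% for caffeine against nicotine. DESeq2 called 1 (Sall1) for arecoline against nicotine, where it called 4.25% of the genes to which it gave an adjusted p, and 0 for arecoline against caffeine (2.82%) and caffeine against nicotine (0.0342%). Unadjusted p-values under 0.05 were found for 1 gene between arecoline and caffeine (15.8% of all genes), for 9 between arecoline and nicotine (18.2%) and for 8 between caffeine and nicotine (9.3%). Mrc1, F13a1, Lyz2 and Cd74, each highest in nicotine 2, were 4 of the 9 and 4 of the 8. Without nicotine 2, counted so after seeing the data, the counts were 6 (13.9% of all genes) and 5 (5.85%), and 0 of either were perivascular genes. Sall1 had the smallest adjusted p of any contrast, with arecoline over nicotine, where the log2 fold change was 1.05 ± 0.26 (SE; edgeR adjusted p = 0.0685), and a 95% interval of 0.51 to 1.60. It was 0.54 ± 0.25 (SE; edgeR adjusted p = 0.31) for arecoline over caffeine and 0.51 ± 0.26 (SE; edgeR adjusted p = 0.548) for caffeine over nicotine, where all 4 caffeine libraries lay above the nicotine libraries (3.13% of all genes higher in this way). Without arecoline 2 the Sall1 value for arecoline over nicotine was 1.29 (edgeR adjusted p = 0.012), past the threshold, and without the 4 libraries that stood apart it was 1.44 (edgeR adjusted p = 0.0053), with only arecoline 1 and 4 left in that group.

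Ranges of arecoline lay wholly below those of nicotine for 5 of the 31 genes (Tmem119, Csf1r, Spi1, Laptm5 and Ptprc), beside 5.04% of all genes. Csf1r was -0.22 ± 0.10 (SE; edgeR adjusted p = 0.24) on the log2 scale in arecoline over nicotine and -0.22 ± 0.10 (SE; edgeR adjusted p = 0.52) in caffeine over nicotine. Spi1 was -0.47 ± 0.19 (SE; edgeR adjusted p = 0.208) in arecoline over nicotine. P2ry13 was -0.53 ± 0.18 (SE; edgeR adjusted p = 0.493) in caffeine over nicotine, with an interval of -0.92 to -0.13. With intervals this wide a missed threshold does not show that the compounds act alike on these genes. A test for any difference among the 4 groups called 0 of 31 genes in edgeR, where it called 1.14% of all genes, while 8 of 31 had an unadjusted p under 0.05 (23.4% of all genes) and DESeq2 called 3, beside 11.9% of the genes to which it gave an adjusted p.

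The signals that reach microglia were read from a list of 10 ligands and receptors, of which 8 were tested and 1 passed with caffeine, 0 with arecoline and 0 with nicotine. Il34, the neuronal ligand of CSF1R, rose with caffeine and had 105, 97.9, 91.3 and 95.9 CPM in caffeine libraries, against 84.1, 75.8, 84.0 and 66.9 CPM in saline libraries. All caffeine libraries were above all saline libraries, as was so for 8.22% of all genes. The log2 fold change was 0.33 ± 0.09 (SE; edgeR adjusted p = 0.0499), which lies at the threshold. It passed in 6 of 26 alternatives, whose adjusted p-values ran between 0.0119 and 0.16. It was 0.15 ± 0.09 (SE; edgeR adjusted p = 0.426) with arecoline and 0.24 ± 0.09 (SE; edgeR adjusted p = 0.315) with nicotine. Csf1, the other ligand, averaged 15.4 ± 3.51 CPM in arecoline, 16 ± 2.33 in caffeine, 14.0 ± 4.7 in nicotine and 15.5 ± 2.02 in saline libraries (SD, n = 4 each), and did not pass with any compound. Cx3cl1, the ligand of CX3CR1, averaged 1194 ± 149.5 CPM in arecoline, 1168 ± 43.9 in caffeine, 1094 ± 81.0 in nicotine and 1012 ± 246 in saline libraries, and did not pass either. Tgfb1, a cytokine that sustains microglial identity, did not pass the filter on low counts.

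Of 16 further microglial genes, 14 were below 0 with arecoline (median -0.33), 14 with caffeine (median -0.21) and 11 with nicotine (median -0.09), and 1 fell, Cd33 with caffeine. Cd33, a sialic acid-binding inhibitory receptor, had 7.16, 5.98, 8.52 and 9.22 CPM in caffeine libraries, against 12.7, 18.5, 10.7 and 14.2 CPM in saline libraries. These ranges did not overlap, and 7.82% of all genes were lower with caffeine in this way. The log2 fold change of Cd33 was -0.86 ± 0.21 (SE; edgeR adjusted p = 0.0347), and it passed in 20 of 26 alternatives, whose adjusted p-values ran between 0.00477 and 0.119. Of 9 tested genes that act downstream of the activation-motif adaptors, such as Syk, 0 passed with any compound (medians -0.22 with arecoline, -0.04 with caffeine and 0.09 with nicotine). Of 11 tested damage-associated genes 0 passed, with medians of -0.25 with arecoline, -0.23 with caffeine and -0.01 with nicotine. Of 12 inflammatory cytokine and enzyme genes only 4 were tested and 0 passed. Complement genes other than C1q (8 tested, medians -0.47 with arecoline, -0.45 with caffeine and 0.24 with nicotine) and MHC class II genes (6 tested, medians -0.65 with arecoline, -0.82 with caffeine and 0.43 with nicotine) held 0 that passed. Without nicotine 2 the nicotine medians were -0.45 for complement and -0.46 for MHC class II genes, both of the other sign, and -0.25 for damage-associated genes.

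Values of other brain cells stand beside these. The median log2 fold change of 10 oligodendrocyte genes was -0.19 with arecoline, -0.83 with caffeine (7 fell) and -0.58 with nicotine, and that of 10 astrocyte genes was -0.44 with arecoline, -0.47 with caffeine (3 fell) and -0.16 with nicotine. The 10 endothelial and mural genes had medians of -0.49 with arecoline, -0.63 with caffeine and -0.10 with nicotine (-0.49 without nicotine 2). Among those that fell with caffeine were Trf, Aspa, Cnp and Mog of oligodendrocytes, at log2 fold changes of -0.93, -1.10, -0.82 and -0.86 (edgeR adjusted p = 0.0118, 0.021, 0.0291 and 0.0292), and Ntsr2, Aldh1l1 and Acsbg1 of astrocytes, at -0.71, -0.62 and -0.67 (edgeR adjusted p = 0.0183, 0.0308 and 0.035). Of 5 erythroid genes tested, Hbb-bt fell with caffeine, at -1.68 ± 0.45 (SE; edgeR adjusted p = 0.0474). Medium spiny neuron genes had medians of 0.13 with arecoline, -2.42 with caffeine and -2.33 with nicotine, and 0 of 12 passed. Without the 4 libraries that stood apart these medians were -2.22, -1.45 and -0.84, and 11, 7 and 0 of the 12 fell, so the arecoline median changed sign. The oligodendrocyte median with arecoline was then -0.52. The 10 cortical excitatory neuron genes had medians of 0.10 with arecoline, 0.71 with caffeine and 0.69 with nicotine, and 0 passed. The 26 microglial and shared genes had medians of -0.22 with arecoline, -0.24 with caffeine and -0.04 with nicotine. Astrocyte, oligodendrocyte, endothelial and microglial medians were all below 0 with arecoline and caffeine. With arecoline and caffeine in turn, medians were -1.19 and -1.40 for 9 tested fibroblast and meningeal genes and -1.13 and -1.35 for 5 erythroid genes. They were -3.3 and -1.8 for 6 tested neutrophil and monocyte genes, and above 0, at 0.99 and 1.17, for 10 olfactory epithelium genes. The part of tissue composition in these values was not tested.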

How the data were processed

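RNA of 16 nucleus accumbens libraries was measured in 4 groups of 4. Trizol extraction is named in the labels' protocols, as is cDNA made from poly(A) RNA by oligo-dT priming and template switching, PCR amplification and a NovaSeq run. Strandedness, molecular identifiers and the number of animals behind a library were not given. RSEM, HISAT2, StringTie 1.3.1, Bowtie2 2.2.8, fastp 0.18.0 and the mm10 build are listed in the submitters' processing notes. The authors deposited, per the file headers, an estimated count and an FPKM value per gene and library. Between 86.6 and 90.4% of the estimated counts were whole numbers, and all were rounded.

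Of 22337 genes, 22232 matched GENCODE M21 by Ensembl identifier (mm10 coordinates), and 105 did not. Rounded counts were tested with edgeR 4.0.16 in R 4.3.3 (TMM factors, filterByExpr, quasi-likelihood F test, one mean per group, all 16 libraries). P-values were adjusted by Benjamini-Hochberg over 14674 genes, with a threshold of 0.05. Levels are CPM scaled by TMM factors, and FPKM was used only to compare genes and in limma 3.58.1 alternatives with pseudocounts of 1 and 0.1. DESeq2 1.42.0 was another alternative. The edgeR test was checked on simulated counts with the same spread for every gene and libraries that differed only in depth and the planted changes. That check does not cover the wide spread of the perivascular genes or the differences in neuron content between libraries. Standard errors come from the log2 fold change and its F statistic. Intervals cover 95%. No pair of libraries of the same group agreed within sampling noise (smallest chi-square per gene 11.9), and pairs from different groups were not compared. The members and lists were chosen with earlier results of these data known. Every member is named. Values in every library are given for 21, which are 17 fixed by role plus any other among the 3 members with the smallest p in each comparison with saline. Of other lists, genes past the threshold are named, up to 4 a list, and the ligands.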

Additional observations from a re-analysis of the deposited data

Results flagged for a closer look

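In each of the 31 genes and 4 groups, 124 sets of 4 libraries, the highest or lowest library was set against the others, and it stood apart by Dixon's test in 12. Chance gives about 1 in 20 such sets if values are normally distributed and sets are independent. These sets share their libraries, and the same count was not made over all genes. The 12 therefore cannot be read as an excess among the 31 genes. Nicotine 2 was high in 4 of the 5 perivascular genes. It had 25.8 CPM of Mrc1, against 2.54 to 4.98 in the other nicotine libraries, 10.3 CPM of Cd163, against 0.603 to 1.61, 26.9 CPM of F13a1, against 1.42 to 5.65, and 79.8 CPM of Cd74, against 9.21 to 17.9. The same library held 891 CPM of fibroblast and meningeal genes and 2424 CPM of olfactory epithelium genes. The part of these in the 4 values was not tested.

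Caffeine 2 was low for Trem2, with 14.6 CPM against 23.2 to 23.6 in the other caffeine libraries, and for Selplg, with 56.0 CPM against 75.5 to 78.6. Caffeine 3 was high for Sall1, with 16.8 CPM against 12.3 to 12.8, and for Cd74, with 19.5 CPM against 6.32 to 8.18. Arecoline 2 was high for Lyz2, with 19.4 CPM against 11.7 to 12.2 in the other arecoline libraries. Saline 3 was low for P2ry12, with 41.3 CPM against 74.8 to 79.8 in the other saline libraries. Saline 2 was high for Csf1r, with 244 CPM against 205 to 209, and saline 4 was low for Cd68, with 15.7 CPM against 22.9 to 23.3.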

How the results depend on the processing

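Over 26 alternatives, 1635 log2 fold changes against saline of the 21 genes given by library were recomputed, and 1628 stayed on the same side of the threshold, 7 came to pass it, and none that passed in either setting changed sign. The count of the 31 genes called with arecoline against saline was 1 with DESeq2 (Tyrobp; 3.47% of all genes with an adjusted p), 1 without the 4 libraries that stood apart (Sall1) and 0 to 1 when each library was left out (Sall1 without arecoline 2). With caffeine it was 2 with DESeq2 (Csf1r and Cx3cr1; 10.7%) and 3 without the 4 libraries (P2ry13, Gpr34 and Cx3cr1; 10% of all genes). It was 0 to 0 with caffeine when each library was left out. For arecoline against nicotine it was 1, Sall1, with DESeq2 (4.25%), without the 4 libraries and with a medium spiny neuron score as covariate, and 0 to 1 when each library was left out. For any difference among the groups it was 3 with DESeq2 (11.9%), 1 without the 4 libraries and 0 to 1 when each library was left out. Without the 4 libraries, an alternative added for these counts after seeing the data, 14 genes were lower at an unadjusted p under 0.05 with caffeine (14.3% of all genes) and 1 with nicotine (8.23%), beside 6 and 0 with every library (12.7% and 5.79%). The median log2 fold change of the 31 genes was -0.31 to -0.18 with arecoline, -0.31 to -0.20 with caffeine and -0.08 to 0.06 with nicotine when each library was left out. Counts over all genes were 0 to 952 with arecoline (2 as reported), 23 to 1496 with caffeine (599) and 0 to 107 with nicotine (0). When each library was left out they were 0 to 198 with arecoline against saline. They were then 2 to 298 for arecoline against nicotine (13 as reported) and 1 to 351 for any difference (167). Other alternatives gave 3 to 609 and 18 to 1667 for the last 2. Counts out of 31 and out of all genes rest on sets of unlike size, so their movement cannot be compared directly. Same-numbered libraries of different groups had a mean correlation of 0.049 (24 pairs, -0.276 to 0.49), beside -0.016 for differently numbered ones (72 pairs, -0.496 to 0.368). Pairing by number was thus not seen, but a mean correlation cannot exclude it. With the replicate number as a block, 0 of the 31 genes were called in any comparison. Levels of Cd163, with 5 to 165 counts per library, are limited by depth.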
